A study of Brassica juncea with 2 samples.

Results

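The unigenes described here belong to fatty acid synthesis and to its branches toward waxes, cutin and storage oil in Brassica juncea, the oilseed Indian mustard, whose variety CS52 tolerates salt. A unigene is an assembled transcript. Members were the unigenes whose annotation in the deposited table holds 1 of 9 words or phrases for these steps, in any case of letters, and 55 of 47513 unigenes did. They carry 31 different annotations and 36 different best matches in B. rapa or other proteins. The CTRL library came from about 10 pooled wild type seedlings kept in water, and the SS library from about 10 pooled seedlings given 200 mM salt for 24 h. The sample labels give an age of 2 weeks for both, and both share the cultivar and hydroponic growth. There is 1 library per condition, so no difference has a replicate check, no test across samples was made, and every interval is a 95% interval that covers counting error only.

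Plants build fatty acids in the plastid on acyl carrier protein, a small protein that holds the growing chain. The finished chains are desaturated in the plastid or the endoplasmic reticulum, activated to acyl-CoA, and joined to glycerol for membranes and oil. In epidermal cells a separate set of elongases in the endoplasmic reticulum lengthens them into the precursors of cuticular wax, and other enzymes turn them into cutin. The cuticle limits water loss, and desaturation affects the fluidity of membranes.

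The members only partly covered the steps toward wax and cutin. The words eceriferum, wax and "fatty acid elong" each matched 0 unigenes in the annotation, so the wax branch was represented by the 3-ketoacyl-CoA synthases (KCS). The cutin branch was represented mainly by long-chain acyl-CoA synthetase 2 (LACS2), since the glycerol-3-phosphate acyltransferases that matched were numbered 1, 2, 3 and 9, which are not the forms known from cutin in Arabidopsis. The word 3-ketoacyl also matched 3 unigenes of peroxisomal 3-ketoacyl-CoA thiolase 3, an enzyme of fatty acid breakdown. Of the members, 20 were elongases (KCS), 12 desaturases (FAD), 8 glycerol-3-phosphate acyltransferases (GPAT), 5 long-chain acyl-CoA synthetases (LACS), 4 components of synthesis on acyl carrier protein, 3 oleosins and 3 thiolases. In all, 54 had a B. rapa match (R in the identifier) and 1 did not (NR). Most NR unigenes cannot be members, since 18286 of 20137 carry no annotation in the deposited table.

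Levels are given in RPKM, the read count scaled to unigene length and to the number of high-quality reads, on each unigene's own recovered length in both libraries. The library totals used were 94800630 reads in CTRL and 89749190 in SS, of which 82.1% and 82.4% lay on unigenes. Members took 0.271% of the CTRL reads on unigenes and 0.241% of those in SS. At least 1 RPKM in either library was reached by 53 members, with 51 to 28633 reads in CTRL and 81 to 30799 in SS. The other members were KCS12 Bju_CS52_R_13581, with 20 reads in CTRL and 12 in SS, and KCS19 Bju_CS52_R_10208, with 6 and 4. Over the 53, the median level was 10.5 RPKM in CTRL and 9.64 RPKM in SS, against 3.48 and 3.27 RPKM over the 43250 unigenes with the same minimum. The 5 members with the most reads held 51.5% of all member reads in CTRL, and 25 members stayed under 10 RPKM in both libraries.

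**Figure D1:**
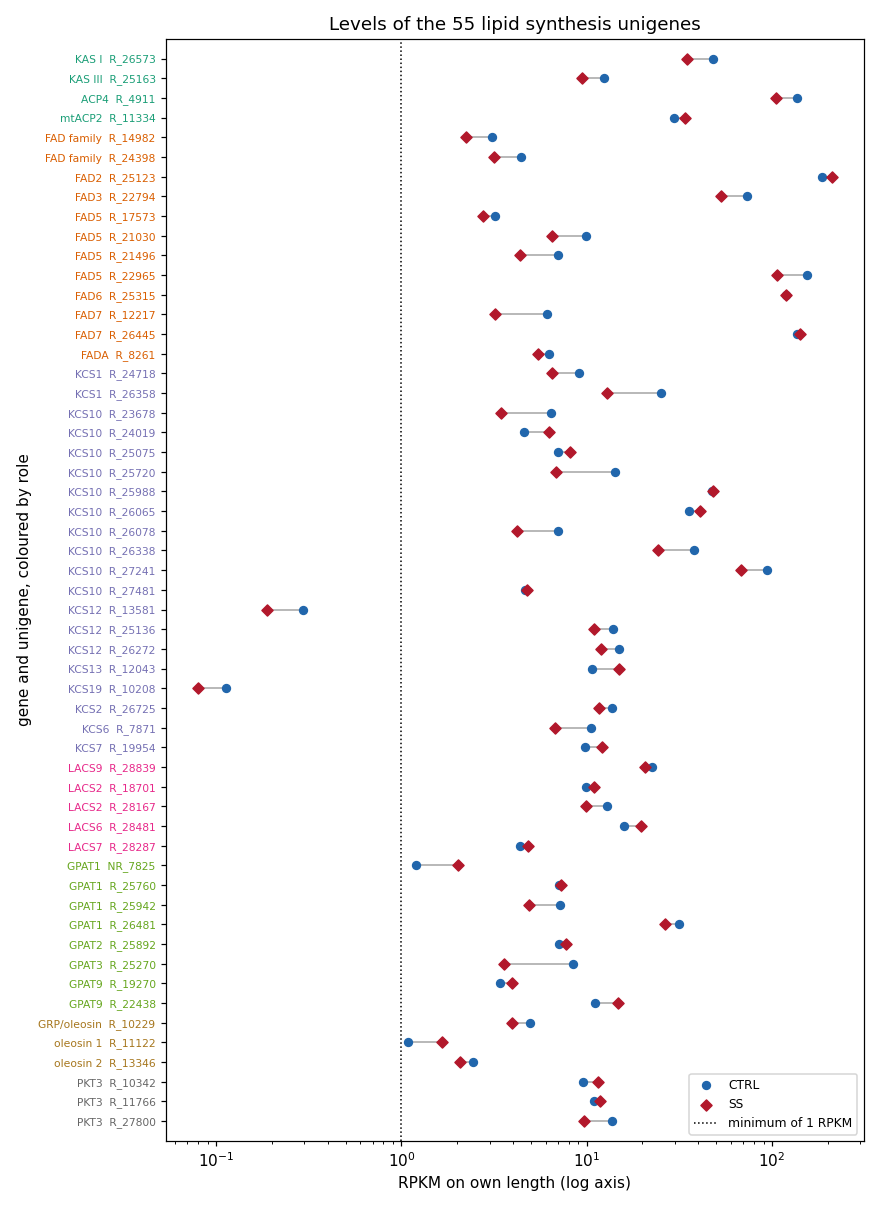
RPKM on own length (log axis) of all 55 members in CTRL (circles) and SS (diamonds), 1 library each, with gene and unigene names shortened and coloured by role. Only 5 members, 4 of them desaturases, reached 100 RPKM, and the KCS19 unigene and 1 KCS12 unigene lay under the minimum of 1 RPKM in both libraries.

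No member rose by 2-fold or more in SS, and 2 fell by that much. These were a GPAT3 unigene and 1 of 10 unigenes of the elongase KCS10. The log2 ratio of SS to CTRL was calculated after adding 0.1 RPKM to each value, and 2-fold means a log2 ratio of 1 or more, or of -1 or less. Over all unigenes with the same minimum, 1.91% were past 2-fold on the higher side and 4.21% on the lower, and the members' 0 and 2 of 53 (0% and 3.77%) lie near or under this background. With a minimum of 5 RPKM the background was 1.29% and 2.18%, and the members' counts were 0 and 2 of 43. Their share on the lower side was then above the background, though it rests on 2 unigenes. The median log2 ratio was -0.23 over the members and -0.06 over all unigenes. It was below 0 for 31 members and above 0 for 22, that is 58.5% below 0 against 57.4% of all unigenes. Within 1.5-fold in either direction lay 42 of 53 members (79.2%), against 82.1% of all unigenes. By counting error alone, the interval of the RPKM ratio was below 1 for 28 members, above 1 for 16, and held 1 for 9. The same counts were not made over all unigenes, whose median level and length were lower. They therefore have no background here and are not a trait of the members. Spread between pools of seedlings is not in these intervals. The directions also rest on rescaling SS to own lengths, since the deposited SS values count reads on 1 common length for every unigene. Left as deposited, they give a median log2 ratio of 0.45 and 13 members past 2-fold on the higher side. In pooled seedlings, fewer cells of a type and less RNA per cell cannot be told apart.

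**Figure D2:**
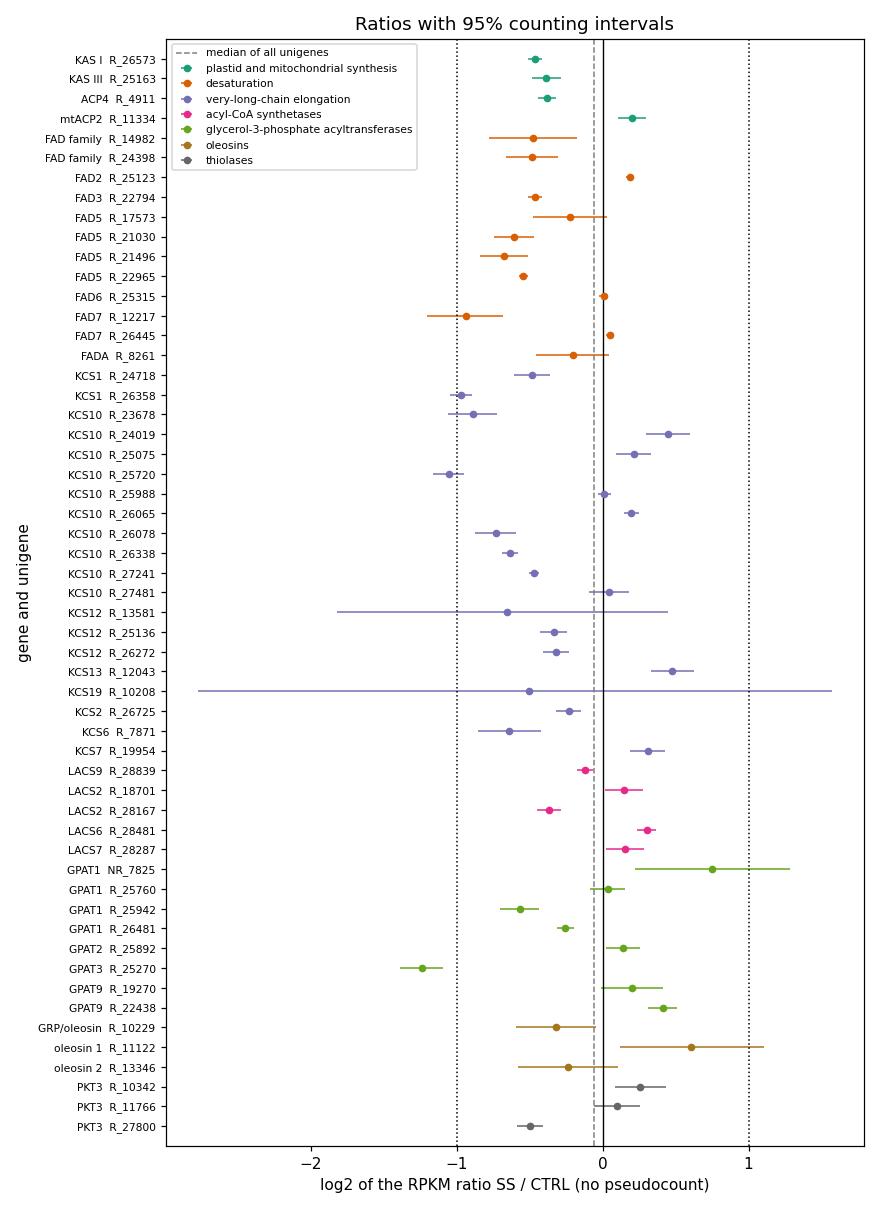
Log2 of the RPKM ratio of SS to CTRL for all 55 members, without a pseudocount, with 95% exact Clopper-Pearson intervals (counting error only). Dotted lines mark 2-fold and the dashed line the median of all unigenes (-0.06). Only GPAT3 R_25270 and KCS10 R_25720 lie past the lower 2-fold line.

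Of the 4 members for synthesis on acyl carrier protein, the 3 of the plastid were lower in SS and the 1 of the mitochondrion was higher. Acyl carrier protein 4 (Bju_CS52_R_4911, 393 bp), a plastid carrier of the growing chain, had 137 RPKM in CTRL and 105 RPKM in SS. Its log2 ratio was -0.38, and its RPKM ratio 0.768 with an interval from 0.736 to 0.802. The 3-ketoacyl-acyl carrier protein synthases carry out the condensations of plastid synthesis, form III at the start and form I through most of the later rounds. Form I (Bju_CS52_R_26573) had 48.0 RPKM in CTRL and 34.8 RPKM in SS, for a log2 ratio of -0.46. Form III (Bju_CS52_R_25163) had 12.4 and 9.49 RPKM, a log2 ratio of -0.38. None of the plastid members was past 2-fold. With the running trend removed, acyl carrier protein 4 was at -0.14, form I at -0.41 and form III at -0.34. Mitochondrial acyl carrier protein 2 (Bju_CS52_R_11334), which serves the separate synthesis in mitochondria, had 29.4 RPKM in CTRL and 33.8 RPKM in SS, for a log2 ratio of 0.20 with a ratio interval from 1.07 to 1.23.

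Desaturases were the most abundant members, with 49.5% of the member reads in CTRL. Their summed level was 709 RPKM in CTRL and 658 RPKM in SS. Of the 12 unigenes, 0 were past 2-fold in either direction, 9 had a log2 ratio below 0 and 3 above, and the median was -0.46. The summed reads differed less than this median, with an SS to CTRL ratio of 0.948, since the 3 unigenes above 0 were among the 4 with the most reads.

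In the endoplasmic reticulum, FAD2 makes linoleic acid and FAD3 turns it into linolenic acid. FAD2 (Bju_CS52_R_25123) was the highest of all members, with 28633 reads or 185 RPKM in CTRL and 30799 reads or 210 RPKM in SS. Its log2 ratio was 0.18, with a ratio interval from 1.12 to 1.15. FAD3 (Bju_CS52_R_22794) had 73.0 RPKM in CTRL and 52.9 RPKM in SS. Its log2 ratio was -0.46, with a ratio interval from 0.702 to 0.748. These consecutive enzymes thus had log2 ratios on opposite sides of 0 in this pair of libraries, with intervals that do not meet.

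The plastid counterparts of these enzymes are FAD6 and FAD7, and their main unigenes hardly differed between the libraries. FAD6 (Bju_CS52_R_25315) had 119.1 RPKM in CTRL and 119.6 RPKM in SS, for a log2 ratio of 0.01 with a ratio interval from 0.983 to 1.02. The long FAD7 unigene (Bju_CS52_R_26445, 1820 bp) had 137 and 142 RPKM, a log2 ratio of 0.05. A shorter FAD7 unigene with the same B. rapa match (Bju_CS52_R_12217, 643 bp) had 6.12 RPKM in CTRL and 3.19 RPKM in SS, for a log2 ratio of -0.92, but it held only a small part of the FAD7 reads, 98.4% of which lay on the long one in CTRL.

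FAD5, which desaturates palmitic acid on the main galactolipid of chloroplasts in Arabidopsis, had the lowest log2 ratio among the 4 desaturases that reached 100 RPKM. Its main unigene (Bju_CS52_R_22965) had 20315 reads or 155 RPKM in CTRL and 13191 reads or 106 RPKM in SS, for a log2 ratio of -0.54 with a ratio interval from 0.671 to 0.701. Over its 4 unigenes, all with the B. rapa match Bra001609, log2 ratios ran from -0.66 to -0.22, all below 0, and only the interval of the least abundant held 1. FADA (Bju_CS52_R_8261), which in Arabidopsis acts on phosphatidylglycerol of the plastid, had 6.28 and 5.45 RPKM. Both unigenes called only fatty acid desaturase family protein, Bju_CS52_R_14982 and Bju_CS52_R_24398, were lower as well, with log2 ratios of -0.46 and -0.47.

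**Figure D3:**
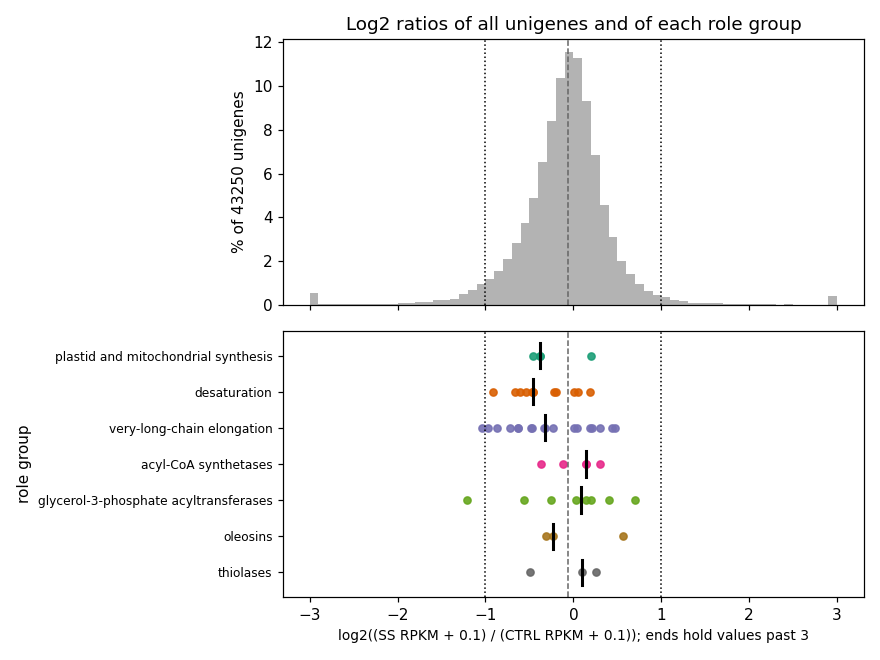
Log2 ratio of SS to CTRL (with 0.1 RPKM added) for the 43250 unigenes that pass the minimum of 1 RPKM (bars, percent per 0.1) and for the 53 members by role (points, 1 per unigene, with the group median as a black bar). Group medians run from -0.46 (desaturation) to 0.14 (acyl-CoA synthetases), and no member lies past 2-fold on the higher side.

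The elongases are the condensing enzymes that open each round of very-long-chain elongation and set its chain length. Of 20 unigenes from 8 KCS genes, 18 passed the minimum. None of them rose past 2-fold and 1 fell past it. Their median log2 ratio was -0.33, with 11 below 0 and 7 above. Summed over the group, CTRL had 59745 reads and SS 45797, which scales to a ratio of 0.810 (0.800 to 0.820). Summing the reads of each gene, the interval of the ratio was below 1 for 5 of 8 KCS genes and above 1 for 2. These counts were not made over all genes, and summed reads give narrow intervals, so the split has no background here.

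KCS10, known in Arabidopsis as FIDDLEHEAD and needed there to keep the epidermis of neighbouring organs from fusing, supplied 74.99% of the elongase reads in CTRL and 76.3% in SS. Its reads were spread over 10 unigenes. They share 2 B. rapa matches, so they may be copies, alleles or assembly variants of few genes, and reads of near-identical copies may be split between them by the mapping. For 3 unigenes with the match Bra007766, the summed RPKM was 138.8 in CTRL and 100.2 in SS. For 7 unigenes with the match Bra034298, it was 120.4 in CTRL and 114.6 in SS. Summed reads gave a ratio of 0.720 (0.706 to 0.734) for Bra007766 and of 0.955 (0.936 to 0.975) for Bra034298. Log2 ratios of single unigenes ran from -0.63 to 0.21 for Bra007766 and from -1.04 to 0.44 for Bra034298, ranges that overlap. The intervals of the summed reads cover neither this spread nor a split of reads by the mapping.

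Single KCS10 unigenes went both ways. The most abundant one, Bju_CS52_R_27241, had 94.0 RPKM in CTRL and 67.7 RPKM in SS, for a log2 ratio of -0.47. Bju_CS52_R_25988 was almost level, with 47.7 and 48.1 RPKM. Bju_CS52_R_25720, the one past 2-fold, had 2312 reads or 14.2 RPKM in CTRL and 1054 reads or 6.86 RPKM in SS. Its log2 ratio was -1.04, and its RPKM ratio 0.482 with an interval from 0.447 to 0.518, which includes 2-fold. That value stands close to the limit: it was -0.96 with a pseudocount of 1 RPKM and -0.98 with size factors or with the running trend removed, and with SS as deposited it was -0.04. At the other end, Bju_CS52_R_24019 had 4.62 RPKM in CTRL and 6.30 RPKM in SS, for a log2 ratio of 0.44. Both of these last unigenes share the match Bra034298, over which log2 ratios spanned 1.48. Spans of this kind were not rare among unigenes at large: among the 60 B. rapa matches with 7 unigenes past the minimum, the median span was 0.93, 5 were wider, and 42 had log2 ratios on both sides of 0.

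Among the other elongases, KCS1 and KCS6, both tied to wax synthesis in Arabidopsis, were lower in SS. The KCS1 unigene Bju_CS52_R_26358 had 4301 reads or 25.1 RPKM in CTRL and 2076 reads or 12.8 RPKM in SS. Its log2 ratio of -0.97 came just short of 2-fold, with a ratio interval from 0.484 to 0.537, and with SS as deposited it was 0.12. A further KCS1 unigene with another B. rapa match, Bju_CS52_R_24718, had 9.06 and 6.48 RPKM, a log2 ratio of -0.48. KCS6 (Bju_CS52_R_7871, 475 bp), the main wax elongase of Arabidopsis stems, had 10.5 RPKM in CTRL and 6.76 RPKM in SS, for a log2 ratio of -0.63 with a ratio interval from 0.552 to 0.745. Only 1 unigene of KCS6 was annotated, and it is short.

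KCS2 (Bju_CS52_R_26725), linked to root suberin in Arabidopsis, had 13.7 RPKM in CTRL and 11.7 RPKM in SS, for a log2 ratio of -0.23. Both KCS12 unigenes past the minimum were lower by about the same amount, with log2 ratios of -0.33 and -0.32. KCS13, which bears on stomatal number in Arabidopsis, was higher: Bju_CS52_R_12043 had 647 reads or 10.7 RPKM in CTRL and 853 reads or 14.97 RPKM in SS, for a log2 ratio of 0.47 with a ratio interval from 1.26 to 1.54. KCS7 (Bju_CS52_R_19954) had 9.77 and 12.1 RPKM, a log2 ratio of 0.31. KCS13 and KCS7 were the KCS genes whose interval lay above 1.

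**Figure D4:**
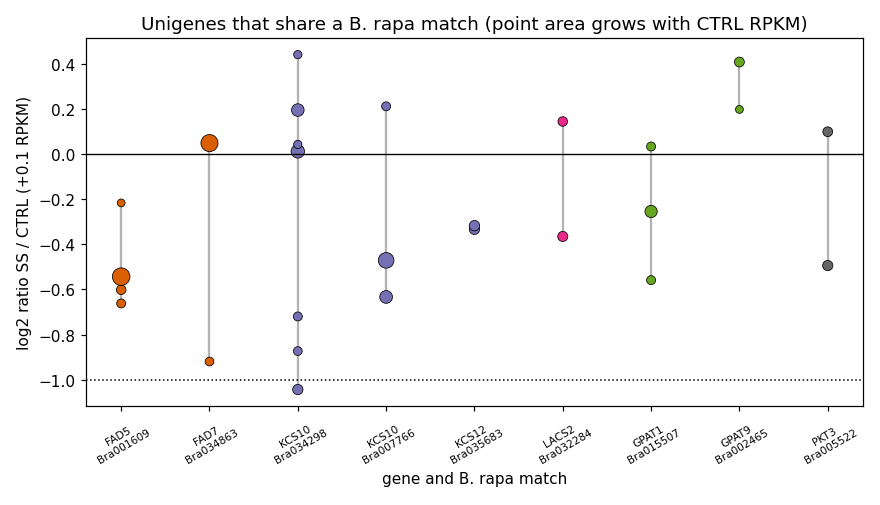
Log2 ratios of SS to CTRL (0.1 RPKM added) for the members that share a B. rapa match, 1 column per match and 1 point per unigene, with point area growing with CTRL RPKM. Of 9 such matches, 6 hold unigenes on both sides of 0. Over all unigenes this was so for 1167 of 3454 B. rapa matches with 2 unigenes past the minimum and 644 of 1296 with 3. For matches with 4 it was 314 of 540, and with 7 it was 42 of 60. The widest span, 1.48, is that of KCS10 Bra034298.

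The acyl-CoA synthetases, which activate free fatty acids, stayed near level as a group. Their 5 unigenes summed to 65.4 RPKM in CTRL and 65.9 RPKM in SS, with a median log2 ratio of 0.14 and 0 past 2-fold. LACS6 (Bju_CS52_R_28481) and LACS7 (Bju_CS52_R_28287), the peroxisomal forms that feed fatty acid breakdown in Arabidopsis, had log2 ratios of 0.30 and 0.15. LACS6 had 15.9 RPKM in CTRL and 19.5 RPKM in SS. LACS9 (Bju_CS52_R_28839), a form of the plastid envelope and the highest of the group, had 22.4 and 20.6 RPKM, a log2 ratio of -0.12. For LACS2, which activates cutin monomers, the long unigene (Bju_CS52_R_28167, 2196 bp) had 12.9 RPKM in CTRL and 9.97 RPKM in SS, for a log2 ratio of -0.37. The shorter LACS2 unigene of the same match (Bju_CS52_R_18701, 1031 bp) had 9.87 and 10.9 RPKM, a log2 ratio of 0.14. The direction for LACS2 therefore depends on the unigene, and summed reads gave a ratio of 0.862 (0.821 to 0.905).

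Glycerol-3-phosphate acyltransferases attach the first acyl chain to glycerol. Of 8 unigenes, none rose past 2-fold and 1 fell past it, and the median log2 ratio was 0.09, which turned to -0.11 with a minimum of 5 RPKM. GPAT3 (Bju_CS52_R_25270) had 1318 reads or 8.42 RPKM in CTRL and 529 reads or 3.57 RPKM in SS. Its log2 ratio of -1.22 was the lowest of all members, and the RPKM ratio was 0.424 with an interval from 0.383 to 0.469. Under the 7 alternatives that keep own lengths it stayed past 2-fold, between -1.24 and -1.04, and with SS as deposited it was -0.27. GPAT9, the form of the endoplasmic reticulum at the entry to membrane lipid and oil synthesis in Arabidopsis, was higher. Its main unigene (Bju_CS52_R_22438) had 11.1 RPKM in CTRL and 14.8 RPKM in SS, for a log2 ratio of 0.41 with a ratio interval from 1.24 to 1.43, and the other one (Bju_CS52_R_19270) had a log2 ratio of 0.20.

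GPAT1, best known from the tapetum of Arabidopsis anthers, had 3 unigenes with the match Bra015507 and 1 NR unigene. The most abundant, Bju_CS52_R_26481, had 31.6 RPKM in CTRL and 26.5 RPKM in SS, for a log2 ratio of -0.26. The others with that match had log2 ratios of -0.56 and 0.03. The NR unigene Bju_CS52_NR_7825 had the highest log2 ratio of all members, 0.70, but on only 51 reads in CTRL and 81 in SS, which leaves a ratio interval from 1.17 to 2.43. GPAT2 (Bju_CS52_R_25892) had 7.05 and 7.77 RPKM, a log2 ratio of 0.14.

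Oleosins, which coat oil bodies in seeds, were among the lowest members. Oleosin 1 (Bju_CS52_R_11122) had 61 reads or 1.08 RPKM in CTRL and 88 reads or 1.65 RPKM in SS, for a log2 ratio of 0.57 with a ratio interval from 1.09 to 2.15. Oleosin 2 (Bju_CS52_R_13346) had 2.44 and 2.07 RPKM, with an interval that holds 1. The glycine-rich oleosin Bju_CS52_R_10229 had 4.95 RPKM in CTRL and 3.97 RPKM in SS, for a log2 ratio of -0.31. None passed 2-fold. A list of seed or embryo words in the annotation (late embryogenesis abundant, seed storage, cupin and the like), whose words also match genes used elsewhere, held 71 unigenes, with summed levels of 754 RPKM in CTRL and 776 RPKM in SS. Of the 66 past the minimum, 1 was past 2-fold on the higher side and 10 on the lower, and the median log2 ratio was -0.08. Its words seed storage and 2S albumin each matched 16 unigenes, a superfamily name that also covers lipid-transfer proteins, and cruciferin, napin and seed maturation matched 0. This list's part in the oleosin values was not tested.

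The thiolase unigenes close the breakdown cycle in the peroxisome. Bju_CS52_R_27800 (2093 bp), the longest, had 13.6 RPKM in CTRL and 9.64 RPKM in SS, for a log2 ratio of -0.49. The short ones, Bju_CS52_R_10342 and Bju_CS52_R_11766, had log2 ratios of 0.26 and 0.10. Bju_CS52_R_11766 and the longest share the match Bra005522, so unigenes of 1 match lie on both sides of 0 here too. Leaving the thiolases out, the median log2 ratio of the members was -0.24.

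Further genes of the pathway were taken by annotation words for carboxylation, acyl chain release, acyl reduction, cutin hydroxylation and triacylglycerol synthesis. Of 31 such unigenes past the minimum, 1 rose and 1 fell past 2-fold, 22 had a log2 ratio below 0, and the median was -0.21. The one that rose, Bju_CS52_NR_1818, annotated as a cytochrome P450 pseudogene, had 0 reads in CTRL and 48 in SS. The one that fell, a short stearoyl-acyl-carrier-protein desaturase family unigene (Bju_CS52_R_1095, 318 bp), had 44 and 5 reads, while the most abundant unigene of that family, Bju_CS52_R_25698, had 33.9 and 31.6 RPKM. A further set of synthesis steps, added after the table was read, had 0 of 15 past 2-fold in either direction and a median log2 ratio of -0.18. Breakdown genes outside the members, acyl-CoA oxidases and acetoacetyl-CoA thiolase, had a median of 0.03 over 11 unigenes, with 8 above 0. Acetoacetyl-CoA thiolase, which the word thiolase brought in, is better known from the start of isoprenoid synthesis than from breakdown. Of the 11, 1 rose past 2-fold, the short acyl-CoA oxidase 1 unigene Bju_CS52_R_2617, on 18 reads in CTRL and 38 in SS, and none fell past it.

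Tissue words gave the following background. Green tissue words matched 44 unigenes, with summed levels of 46110 RPKM in CTRL and 43886 RPKM in SS, with a median log2 ratio of -0.02, and 2 of them past 2-fold on the lower side. Root words matched 28, summing to 165 RPKM in CTRL and 155 RPKM in SS, and the 22 past the minimum had 0 past 2-fold and a median of -0.09. Anther or pollen words matched 32, with 0 higher, 3 lower and a median of -0.19. Epidermis words matched 10, with summed levels of 24.8 RPKM in CTRL and 20.5 RPKM in SS, and the 9 past the minimum had 0 higher, 1 lower and a median log2 ratio of -0.38. The medians of all these lists were below 0, as was that of all unigenes (-0.06). With the running trend removed, the medians were 0.05 for green tissue and 0.04 for root, above 0. For anther or pollen the median was then -0.07, and for epidermis -0.13. With a minimum of 5 RPKM only 1 epidermis unigene was left, at a log2 ratio of -0.10. The word epiderm matched 5 unigenes, stomat 5, and protodermal and glabra 0, and the list's part in the elongase values was not tested.

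Members were longer than most unigenes, with a median length of 1584 bp against 744 bp. Length cancels in the RPKM ratio on own lengths, but the median over all unigenes still varied between length classes. A median over unigenes of like length is thus the nearer background. Of unigenes between 1500 and 2000 bp, 4644 past the minimum had a median log2 ratio of -0.04, and the 23 members of that length had -0.33. Between 1000 and 1500 bp the medians were -0.02 over 8145 unigenes and -0.16 over 10 members, and above 2000 bp -0.09 over 4383 unigenes and -0.04 over 6 members. From 500 to 1000 bp they were -0.05 over 14402 unigenes and -0.06 over 10 members, and from 300 to 500 bp -0.13 over 11676 unigenes and -0.29 over 4 members. The median of the members thus lay furthest under that of like unigenes from 1500 to 2000 bp, the class with most elongases, and not under it in the longest class, which holds 4 of the 5 acyl-CoA synthetases.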

How the data were processed

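RNA of 2 libraries, CTRL and SS, was sequenced as paired-end reads. The authors assembled high-quality reads with Trinity, clustered them into unigenes with CD-HIT-EST, annotated these by BLAST against B. rapa, Arabidopsis and protein databases, mapped the reads back with Bowtie2, and named DESeq for normalization. Tool versions are not given here. The deposited CTRL column holds RPKM made by the authors with the length of each unigene. The SS column, deposited under the heading RPKM as well, is instead a signal on 1 common length: all 47505 listed values are whole multiples of 1 read on 849 bp, within 0.01 read. The design had assumed RPKM in both columns.

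Whole reads and lengths were recovered from the decimals of the CTRL values (1 length for 47390 of 47392 unigenes above 0 and for all 55 members), and SS was put on those lengths. For 1000 bp of unigene, 1 read equals 0.0105 RPKM (CTRL) or 0.0111 RPKM (SS). The log2 ratio used a pseudocount of 0.1 RPKM and a minimum of 1 RPKM in either library. Intervals are 95% exact Clopper-Pearson intervals of the RPKM ratio from the recovered reads (SciPy 1.17.1), and they cover counting error only. They treat each read as independent. Paired-end reads are not independent molecules, so the intervals may be too narrow even for counting error. With 1 library per condition no count test across samples was run. The recovery and ratios were tested on simulated data, where 99.99% of the lengths came back. The simulation took the recovered lengths as true and used the same recovery rule, so it cannot show that these lengths are right.

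The rule named members past 2-fold, the 2 highest members of each role group, members at 100 RPKM or more, and unigenes sharing a B. rapa match with any of these. Other members are named to show each gene and were chosen after their values were seen. Members and lists were chosen with earlier results of these data known. Alternatives were 2 other pseudocounts, 2 other minimums, 2 other scalings, a running median of the log2 ratio over 500 unigenes in number order removed, and SS as deposited. The table held 0 other columns per sample. Sequences were not used here.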

Additional observations from a re-analysis of the deposited data

How the results depend on the processing

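The pseudocount, minimum, scaling, trend and SS length were changed 1 at a time. Under the 7 alternatives that keep own lengths, no member changed the sign of its log2 ratio, and no member was past 2-fold on the higher side. The count past 2-fold on the lower side was 1 in place of 2 with a pseudocount of 1 RPKM, with size factors and with the running trend removed, since KCS10 Bju_CS52_R_25720 then lay at -0.96, -0.98 and -0.98. The median log2 ratio of the members was -0.32 with a minimum of 5 RPKM, which keeps 43 of them, and -0.14 with the running trend removed. Over all unigenes the medians under these settings were -0.009 and -0.0003. The median of the acyltransferases was 0.09 and turned to -0.11 with the minimum of 5 RPKM. With SS as deposited, the members' median was 0.45, 13 members were past 2-fold on the higher side and 3 on the lower, and 22 of 53 changed sign. That column uses 1 length for all unigenes, so 40 members longer than 849 bp gain and shorter ones lose in it. No paired analysis was possible because each condition has 1 library. Counting error is small for most members, and the spread between pools of seedlings is unknown, which limits every ratio here.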

Other observations

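Values of single unigenes in the wider pathway lists, chosen after they were seen, add to the steps that the members lack. For cutin hydroxylation, a fatty acid hydroxylase of the CYP86A family was annotated on Bju_CS52_R_20947, with 16.9 RPKM in CTRL and 13.0 RPKM in SS, and on Bju_CS52_R_18404, with 13.2 and 7.71 RPKM. Their log2 ratios were -0.38 and -0.76, both below 0. The CYP77A5 pseudogene unigenes Bju_CS52_R_17891 and Bju_CS52_R_13088, found with the same words, had log2 ratios of 0.12 and -0.10, with intervals that hold 1. For wax alkanes, the CYP96A15 unigene Bju_CS52_R_24582, a midchain alkane hydroxylase in Arabidopsis, had 2.53 RPKM in CTRL and 2.18 RPKM in SS, with an interval that holds 1. Acyl reductases make fatty alcohols. The jojoba acyl-CoA reductase-related unigene Bju_CS52_R_24801 had 6.78 and 9.38 RPKM, a log2 ratio of 0.46 with a ratio interval from 1.275 to 1.503. The others, Bju_CS52_R_25611 and Bju_CS52_NR_21300, had log2 ratios of 0.07 and 0.24 with intervals that hold 1, the latter under the minimum of 1 RPKM, and the low fatty acid reductase 5 unigene Bju_CS52_R_8198, also under it, was at -0.51. Plastid acetyl-CoA carboxylase, which commits carbon to fatty acids, was lower in its abundant subunit unigenes, with log2 ratios of -0.37 for the biotin carboxylase Bju_CS52_R_27498, and -0.39 and -0.18 for the carboxyltransferase alpha Bju_CS52_R_29600 and Bju_CS52_R_29035. Past the minimum, 22 of 31 unigenes of the wider list and 10 of 15 of the set added later were below 0. Some were closer to level or above 0, such as the stearoyl-acyl-carrier-protein desaturase unigenes Bju_CS52_R_24467 (0.00) and Bju_CS52_R_25183 (-0.05). So were the beta-ketoacyl synthase unigenes Bju_CS52_R_6991 (0.38) and Bju_CS52_R_10731 (0.03), with intervals that hold 1, and fatty acid biosynthesis 1 Bju_CS52_R_12793 (0.43). Of the same annotations, the desaturase unigenes Bju_CS52_R_9289 and Bju_CS52_R_21752 were at -0.97 and -0.93. The most abundant fatty acid biosynthesis 1 unigene, Bju_CS52_R_28216, was at -0.17, and Bju_CS52_R_11900, Bju_CS52_R_12966 and Bju_CS52_R_13430 were at -0.32, -0.56 and -0.38.

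On the storage side, values lay on both sides of 0. The caleosin-related unigene Bju_CS52_R_17915, of a family found on lipid droplets, had 165 RPKM in CTRL and 202 RPKM in SS, for a log2 ratio of 0.29, while Bju_CS52_R_15501 of that family had a log2 ratio of -0.36. Phospholipid:diacylglycerol acyltransferase, which makes triacylglycerol from membrane lipid, had 42.4 RPKM in CTRL and 50.2 RPKM in SS on its long unigene Bju_CS52_R_28873, a log2 ratio of 0.24. The main acyl-CoA oxidase 1 unigene, Bju_CS52_R_28574, which opens the breakdown cycle, had 26.7 and 32.7 RPKM, a log2 ratio of 0.29. Of the 11 breakdown unigenes outside the members, 8 were above 0 and 3 below. Those below were acyl-CoA oxidase 2 Bju_CS52_R_5294 (-0.62) and Bju_CS52_R_28438 (-0.07), and acyl-CoA oxidase 6 Bju_CS52_R_28076 (-0.10). None of the unigenes in these paragraphs was past 2-fold.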
